A study of Homo sapiens with 65 samples.

Results

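The genes described here are 31 enzymes, transporters and regulators of glycolysis: the 3 hexokinases HK1, HK2 and HK3, GPI, the phosphofructokinases PFKL, PFKM and PFKP, the aldolases ALDOA and ALDOC, TPI1, GAPDH, PGK1, PGAM1, the enolases ENO1, ENO2 and ENO3, PKM, the lactate dehydrogenases LDHA and LDHB, the glucose transporters SLC2A1 and SLC2A3, the lactate transporters SLC16A1 and SLC16A3, the pyruvate dehydrogenase kinases PDK1 to PDK4 and the bifunctional enzymes PFKFB1 to PFKFB4. They were chosen by symbol as members of the pathway, though with earlier results of these data known. All 31 were matched among the 58302 gene identifiers of the table of fragment counts. Glycolysis splits glucose into pyruvate in the cytosol. Lactate dehydrogenase can then turn pyruvate into lactate, which leaves the cell through monocarboxylate transporters, or pyruvate can enter the mitochondrion, where pyruvate dehydrogenase kinases restrain its oxidation. Pluripotent stem cells are known for high glycolytic activity, and many genes of the pathway are known targets of hypoxia-inducible factors and MYC.

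The data are total RNA sequencing libraries of H9, a human embryonic stem cell line, carrying fluorescent reporters at SOX17 (mCherry) and RUNX1C (GFP) in every group. The RUNX1 knockout line (KO) was made from this reporter line by CRISPR deletion of the part of RUNX1 that encodes its DNA-binding domain, and the unedited reporter line is called WT. In the blood-forming mesoderm protocol, KO and WT cells were collected unsorted at days 0, 2 and 4, with 4 libraries per line and day. The cells were grown in STAPEL medium with BMP4, activin A, VEGF, SCF and FGF2, and with IGF2 among the factors after day 4. Between days 2 and 4, SB431542, an inhibitor of activin receptors, and CHIR 99021, an activator of WNT signalling, were added. At day 7, CD34+CD43- endothelial cells were sorted into SOX17+ and SOX17- fractions (SOX17+: 4 KO and 4 WT libraries, SOX17-: 3 KO and 4 WT). At day 12 every sorted fraction was CD34+ as well. The fractions were SOX17-CD43+ (3 WT libraries) and SOX17+CD43+ (2 WT), which carry the blood antigen CD43, and SOX17+CD43- endothelium (4 KO and 4 WT). There was also 1 KO library of SOX17-CD43- cells, which entered no test. A separate endoderm protocol took WT cells to days 0, 2, 4 and 7 unsorted, with 3 libraries per day, using activin A, CHIR 99021 and the PI3 kinase inhibitor PI-103 at the start and activin A with the BMP receptor inhibitor DMH-1 afterwards. The labels of the KO libraries of days 2 and 4 name the line in the title and not in the genotype field. Nothing in the labels says that libraries of a group came from separate cultures, so p-values measure the spread between these libraries, which may be technical.

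Many hypoxia-responsive glycolytic genes carry the core of the hypoxia response element, ACGTG, near their start. In RefSeq (GRCh38.p14), 28 of the 31 genes had a listed start, all except SLC2A3, SLC16A1 and PFKFB2. ACGTG was searched on both strands in the 250 bases before each start, so that the palindrome CACGTG counted on each strand. It was present in 19 of the 58 windows of these genes (32.8%), belonging to 16 genes, and in 6501 of all 35116 windows of that length in the table (18.5%). The sequences shown are stretches of those windows, without any base of an annotated exon, with each ACGTG match in capitals. They belong to 4 genes that had matches and whose changes are described further on. They lie at chr11:18394313-18394387 (LDHA), chrX:78103998-78104173 (PGK1), chr2:74834920-74835169 (HK2, second listed start) and chr17:82228792-82229031 (SLC16A3, second listed start), all on the plus strand, and read 5′ to 3′.
LDHA: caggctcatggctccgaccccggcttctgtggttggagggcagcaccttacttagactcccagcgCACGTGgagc
PGK1: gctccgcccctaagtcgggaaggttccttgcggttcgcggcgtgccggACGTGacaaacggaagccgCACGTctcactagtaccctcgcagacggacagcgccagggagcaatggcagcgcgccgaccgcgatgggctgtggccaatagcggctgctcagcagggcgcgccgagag
HK2: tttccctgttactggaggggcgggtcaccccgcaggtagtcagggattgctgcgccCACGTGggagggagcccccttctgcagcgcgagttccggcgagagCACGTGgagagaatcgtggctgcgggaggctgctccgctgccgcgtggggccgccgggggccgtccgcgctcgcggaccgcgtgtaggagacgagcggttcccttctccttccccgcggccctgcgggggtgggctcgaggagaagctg
SLC16A3: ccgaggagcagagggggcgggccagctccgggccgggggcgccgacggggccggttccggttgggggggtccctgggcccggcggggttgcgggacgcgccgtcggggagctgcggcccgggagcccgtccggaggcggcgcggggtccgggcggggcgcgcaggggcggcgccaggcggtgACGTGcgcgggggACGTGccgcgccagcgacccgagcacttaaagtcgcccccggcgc
The HK2 stretch held 4 matches, and the LDHA, PGK1 and SLC16A3 stretches held 2 each. SLC2A1, which changed more than any of these across the groups, had 0 matches in its window. PKM and HK1, whose changes are also described further on, had 0 matches in any window. A link between matches and changes was not tested. A match describes the letters only, and binding was not measured here.

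The libraries held between 10366048 and 19081031 counts. In all comparisons a call means an adjusted p under 0.05 in edgeR's quasi-likelihood test with Benjamini-Hochberg adjustment over all tested genes. RUNX1 averaged 35.3 ± 5.85 CPM (counts scaled to library size) in KO and 104 ± 28.9 CPM in WT SOX17+ cells of day 7 (SD, n = 4 each; log2 fold change -1.54 ± 0.24, SE, adjusted p = 0.0051). At day 12 it averaged 14.5 ± 5.03 CPM in KO and 60.2 ± 22.7 CPM in WT SOX17+CD43- cells (log2 fold change -2.05 ± 0.25, adjusted p = 6.3e-05). At day 4 it averaged 30.9 ± 26.1 CPM in KO and 41.6 ± 18.4 CPM in WT mesoderm and was not called. Counts over the whole gene cannot show the deletion itself. The gates were visible in the RNA: SOX17 averaged 176 ± 32.4 CPM in SOX17+ and 46.4 ± 16.9 CPM in SOX17- WT cells of day 7, and SPN, which encodes CD43, averaged 412 ± 74.6 CPM in SOX17-CD43+ and 2.42 ± 0.85 CPM in SOX17+CD43- cells of day 12. Definitive endoderm markers (8 genes) summed to 17415 to 20418 CPM in endoderm of day 7 and to 404 to 606 CPM in SOX17+ endothelium of day 7, where 2 of the 8 had 0 counts in every library.

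Some values rest on shared sequence. 12 of the genes have processed copies named after them in GENCODE 29, led by GAPDH with 62 pseudogenes. The copies took counts equal to 39.6% of those of TPI1 and 17.5% of those of PGAM1. Reads could be split between PGAM1, which had only 7163 counts in all 65 libraries, and its copies, so its levels are uncertain. The 3 pseudogenes named after SLC2A3 took counts equal to 9.41% of those of SLC2A3. SLC2A14, a near-identical copy of SLC2A3, held counts equal to 0.973% of those of SLC2A3. GAPDH, ENO3 and PDK2 share 14.2%, 2.59% and 38.6% of their exonic bases with AC006064.4, PFN1 and SAMD14. ALDOA, ALDOC and PFKM share 13.3%, 10.1% and 8.58% with AC093512.1, AC005726.4 and SENP1. SLC16A3 shares 6.04% with other genes, led by CSNK1D, which held 183573 counts against 50563 for SLC16A3. The remaining overlaps were of 5.07% (GPI) or less. SAMD14 held 36525 counts in all libraries, against 25408 for PDK2, so PDK2 levels are uncertain. No source used here gives the strand setting of the counting. Reads from the shared bases cannot be told apart.

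The 31 genes together took the largest share of counts in undifferentiated cells. In the mesoderm protocol the share was 1.65% ± 0.05 in KO and 1.66% ± 0.22 in WT cells at day 0, 1.12% ± 0.05 in KO and 1.15% ± 0.05 in WT cells at day 2, and 0.77% ± 0.14 in KO and 0.793% ± 0.077 in WT cells at day 4 (SD, n = 4 each). In sorted SOX17+ endothelium it was 0.419% ± 0.048 in KO and 0.476% ± 0.033 in WT cells at day 7, and 0.333% ± 0.024 in KO and 0.342% ± 0.025 in WT CD43- cells at day 12. The CD43+ fractions of day 12 stood above that endothelium, at 0.843% ± 0.085 in SOX17-CD43+ cells (n = 3) and 0.569% ± 0.067 in SOX17+CD43+ cells (n = 2). On average endoderm had a larger share than mesoderm at days 2 and 4, a difference that was not tested. Its share was 1.58% ± 0.12 at day 0, 1.33% ± 0.12 at day 2, 1.26% ± 0.03 at day 4 and 1.16% ± 0.05 at day 7 (n = 3 each). At day 2 the protocols overlapped, with 1.216% in endoderm replicate 1 and 1.226% in WT mesoderm replicate 2. Libraries of the mesoderm protocol at day 0, day 2 and day 4 did not overlap in this share. In samples of many cells, fewer cells of a type and less RNA of a gene per cell cannot be told apart.

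**Figure D1:**
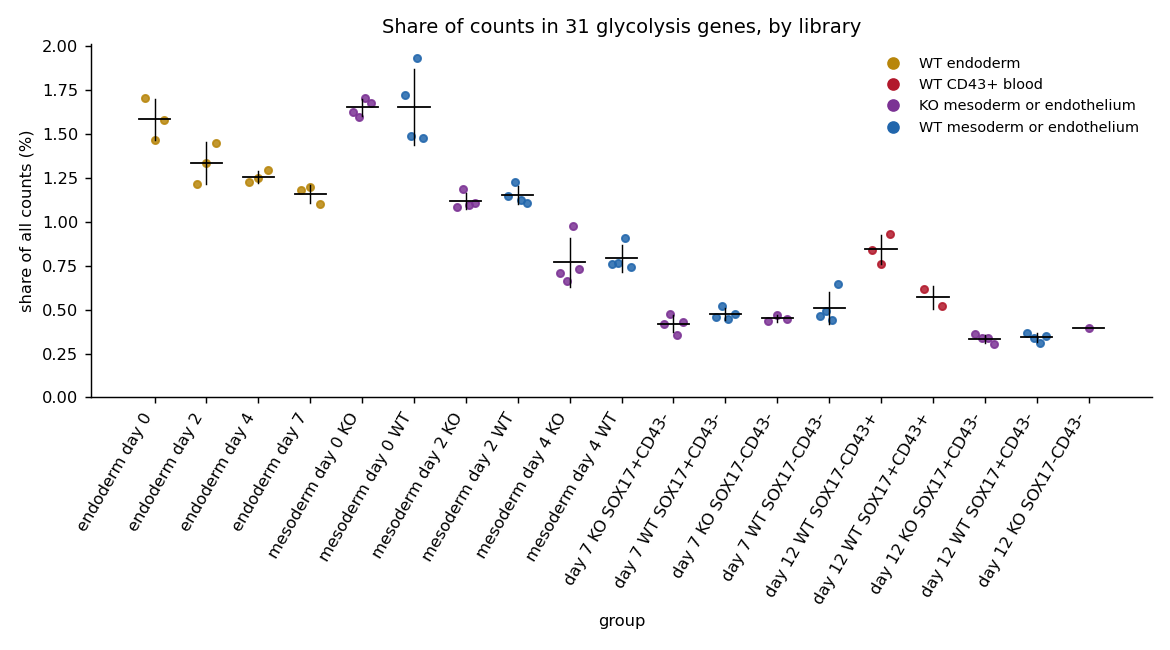
Share of all counts (%, vertical axis) taken by the 31 genes in each library (points), by group, with the group mean (bar) and SD (line). Endoderm of day 7 sits at 1.16%, SOX17+ endothelium of day 7 at 0.476% in WT, and the CD43+ fractions of day 12 lie above the CD43- endothelium of the same day.

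Per length taken for each gene, the most abundant of the 31 genes belonged to the later steps of the pathway. In WT cells of day 0, GAPDH averaged 9.65, ENO1 9.24, PKM 8.42, LDHB 8.35 and LDHA 8.14 on the scale of log2(RPKM + 1), and PFKFB1, PDK4 and HK3 averaged 0.20, 0.14 and 0.11. In endoderm of day 7 SLC2A3 led at 9.02, followed by PKM at 8.88, ENO1 at 8.28 and GAPDH at 8.19. In SOX17+ WT endothelium of day 7 GAPDH (7.79), LDHB (7.62) and ENO1 (7.19) led, and LDHA stood at rank 12 with 4.28. Across the 18 groups with replicates, the highest group mean in CPM was 62.2 times the lowest for SLC2A1, 55.5 times for ENO2, 46.5 times for SLC2A3, 20.8 times for LDHA and 19.2 times for HK2, against 2.65 times for PFKM, 2.56 times for PDK3 and 1.72 times for PFKFB2. Of the 31 genes, 18 had their highest mean in a day 0 group, and 15 had their lowest in CD43- endothelium of day 12.

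**Figure D2:**
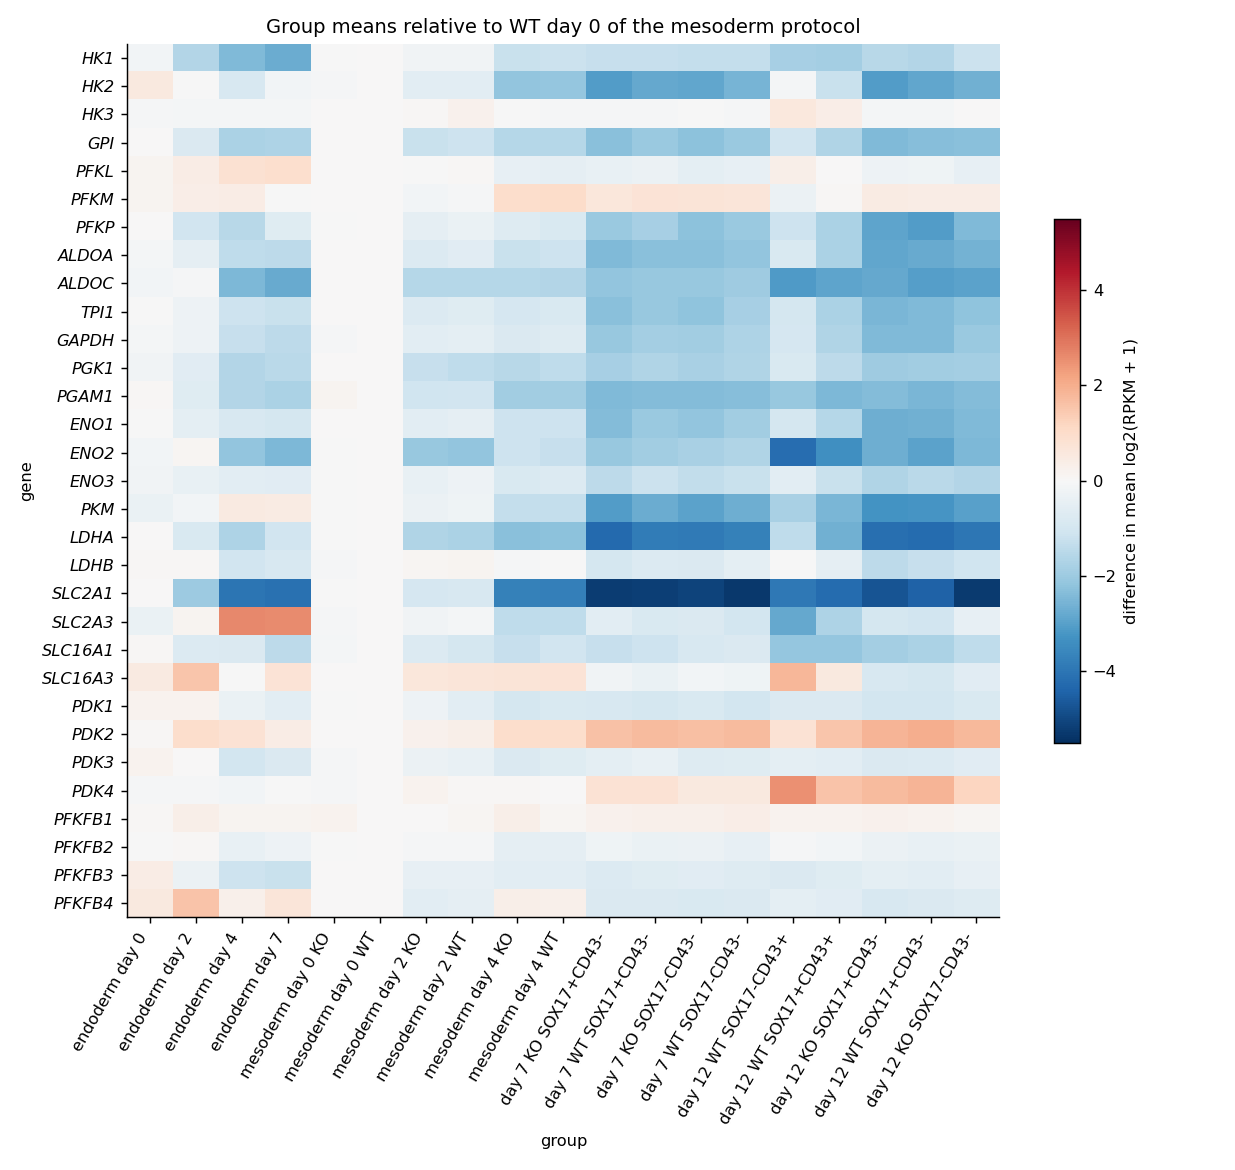
Group means of the 31 genes (vertical axis, in pathway order, then regulators) in every group (horizontal axis), as the difference in mean log2(RPKM + 1) from WT cells at day 0 of the mesoderm protocol; red is higher and blue lower. SLC2A1 is lower in every group after day 0, and SLC2A3 is higher than at day 0 in endoderm of days 4 and 7.

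In mesoderm genes of the pathway fell at both steps of the protocol. Between days 0 and 2 the fall was led by ENO2, LDHA, ALDOC and PGK1, and between days 2 and 4 by SLC2A1, HK2, SLC2A3, PKM and HK1. In WT cells 14 of the 31 genes were lower and 2 higher at day 2 than at day 0. The background, the share of all tested genes called in the same comparison, was 45.1%, with 22.9% lower and 22.2% higher. The median log2 fold change was -0.49 for the 31 genes and -0.00 for all tested genes. At day 4 against day 2, 14 were lower and 4 higher (medians -0.36 and -0.01). The background was 51.4%, with 25.5% lower and 25.9% higher. Of the 14 genes lower at each step, 7 were the same: ALDOA, ENO1, ENO3, GPI, LDHA, PGAM1 and SLC2A1. The call of ENO3 at day 2 (-0.28 ± 0.12, adjusted p = 0.0497) was lost without WT day 0 replicate 1 or 2 or any 1 of the 4 WT day 2 libraries, at adjusted p between 0.0581 and 0.225, and with the replicate block (0.0655), library size alone (0.0804) or no filter (0.103). That of GPI at day 4 was lost without WT day 2 replicate 2 or WT day 4 replicate 4, at adjusted p between 0.0546 and 0.0609. PFKFB4 lost its call as lower at day 2 without WT day 0 replicate 3 (adjusted p = 0.0688). Both steps share the day 2 libraries.

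Among the transporters, SLC2A1, which encodes the glucose carrier GLUT1, had 498, 504, 782 and 474 CPM on day 0, 363, 242, 291 and 312 CPM on day 2, and 39.7, 47.2, 32 and 30.1 CPM on day 4 in WT libraries. Its levels did not overlap between days, and it changed by a log2 fold change of -0.89 ± 0.24 at day 2 against day 0 (adjusted p = 0.005) and of -3.02 ± 0.26 at day 4 against day 2 (adjusted p = 5.9e-09). SLC2A3, the high-affinity carrier GLUT3, had 858, 399, 566 and 394 CPM on day 0 and 524, 339.7, 529 and 574 CPM on day 2, which overlapped, and 260.1, 165, 196 and 182 CPM on day 4, all lower (day 4 against day 2: -1.29 ± 0.28, adjusted p = 0.00054). SLC16A1, the lactate carrier MCT1, averaged 655 ± 62 CPM on day 0, 335 ± 28.5 CPM on day 2 and 314 ± 28.7 CPM on day 4 (day 2 against day 0: -0.95 ± 0.10, adjusted p = 7.3e-08).

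At the entry of the pathway, HK2, the inducible hexokinase, had 119, 105, 219.6 and 124 CPM on day 0, 73.4, 129.9, 75.9 and 88.7 CPM on day 2 and 26.1, 28.9, 31.9 and 21.6 CPM on day 4. The day 4 libraries lay below all earlier ones (day 4 against day 2: -1.76 ± 0.29, adjusted p = 2.7e-05), while days 0 and 2 overlapped. HK1, the constitutive hexokinase, averaged 501 ± 40.3 CPM on day 0, 442 ± 28.9 CPM on day 2 and 217 ± 23.5 CPM on day 4 (day 4 against day 2: -1.03 ± 0.15, adjusted p = 6e-06). GPI, which turns glucose 6-phosphate into fructose 6-phosphate, averaged 462 ± 69.1 CPM on day 0, 201 ± 16.5 CPM on day 2 and 151 ± 21.8 CPM on day 4 (day 2 against day 0: -1.19 ± 0.14, adjusted p = 3e-07). PFKM, the muscle-type phosphofructokinase, moved the other way at day 4: it had 87, 65.6, 73.1 and 69.5 CPM on day 0, 68.7, 65.9, 73.6 and 70.2 CPM on day 2 and 155, 155, 139 and 171 CPM on day 4. Every day 4 library was above every earlier one (day 4 against day 2: +1.15 ± 0.10, adjusted p = 4.3e-09), whereas PFKL, the liver type, fell at that step (-0.61 ± 0.09, adjusted p = 1.1e-05).

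In the lower part of the pathway, LDHA, which reduces pyruvate to lactate, had 1789, 1372, 2499.9 and 1501 CPM on day 0 and 485, 704, 463 and 442 CPM on day 2, a change of -1.76 ± 0.19 without overlap (adjusted p = 1.4e-07). At day 4 it had 312, 384, 455 and 323 CPM, which overlapped with day 2. Its call at this step (-0.50 ± 0.19, adjusted p = 0.029) was lost without WT day 2 replicate 2 or without WT day 4 replicate 1 or 4, at adjusted p between 0.0891 and 0.175. PGK1, the first of the 2 enzymes of the pathway that make ATP, had 1035, 795, 1256 and 776 CPM on day 0, 356, 399, 337 and 356 CPM on day 2 and 333, 361, 427 and 314 CPM on day 4. It fell once, at day 2 (-1.40 ± 0.14, adjusted p = 2.2e-08). PKM, pyruvate kinase and the last step to pyruvate, had 3461, 2727, 3282 and 2383 CPM on day 0 and 2390.2, 2849, 2397 and 2389.6 CPM on day 2, which overlapped, and 1215, 1170.1, 1371 and 1013 CPM on day 4. It fell once too, at day 4 (-1.07 ± 0.14, adjusted p = 1.6e-06). GAPDH (-0.53 ± 0.11), ALDOA (-0.64 ± 0.12), TPI1 (-0.66 ± 0.12) and ENO1 (-0.48 ± 0.13), which carry out the middle and later steps, were each lower at day 2 than at day 0.

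The neuronal-type isoforms behaved differently from each other after day 2. ALDOC, aldolase C, had 97.2, 60.1, 93.3 and 59.8 CPM on day 0, 22.7, 24.7, 26.4 and 21.1 CPM on day 2 and 17.9, 14.6, 39.2 and 26.7 CPM on day 4, lower at day 2 (-1.70 ± 0.26, adjusted p = 1.3e-05) and not called at day 4. ENO2, the neuronal enolase, had 115, 104, 140.2 and 96.3 CPM on day 0, 26.2, 16.9, 26.1 and 19.3 CPM on day 2, and 44.2, 37.6, 53.2 and 43.6 CPM on day 4. The day 2 libraries lay below all others (day 2 against day 0: -2.35 ± 0.34, adjusted p = 5.5e-06), and the level was higher again at day 4 than at day 2 (+1.01 ± 0.33, adjusted p = 0.013).

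Among the regulators, PDK2, a kinase that restrains pyruvate dehydrogenase, averaged 7.89 ± 1.61 CPM on day 0, 11.3 ± 2.32 CPM on day 2 and 21.2 ± 4.89 CPM on day 4, and was higher at day 4 than at day 2 (+0.90 ± 0.21, adjusted p = 0.0012). Its call at day 2 (+0.53 ± 0.22, adjusted p = 0.049) was lost without any 1 of 6 of the 8 libraries (WT day 0 replicates 2, 3 and 4 and WT day 2 replicates 1, 3 and 4), at adjusted p between 0.0789 and 0.144. HK3, barely present, was the other gene called higher at day 2 (+1.76 ± 0.57, adjusted p = 0.015), a call lost without WT day 0 replicate 3 (adjusted p = 0.0518) or WT day 2 replicate 4 (adjusted p = 0.0588). PFKFB4, which sets the level of the phosphofructokinase activator fructose 2,6-bisphosphate, rose to 25.8 ± 3.68 CPM on day 4, against 12.6 ± 1.58 CPM on day 2 (+1.04 ± 0.22, adjusted p = 0.00048).

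KO mesoderm repeated these steps. At day 2 against day 0, 14 of the 31 genes were lower and 1 higher in KO cells, and the 14 lower genes were those called in WT cells, ENO3 and PFKFB4 with the WT losses given above. The background was 43.3%, with 21.7% lower and 21.6% higher. At day 4 against day 2, 14 were lower and 5 higher in KO cells (background 50.5%, with 24.5% lower and 26% higher). Of these, 12 lower genes and all 4 WT risers (ENO2, PDK2, PFKFB4 and PFKM) were shared with WT. The KO call of LDHA as lower at day 4 was lost without KO day 2 replicate 2 (adjusted p = 0.0514). SLC2A1 had 453, 530.2, 699.8 and 534 CPM on day 0, 296, 293, 278 and 286 CPM on day 2 and 33.7, 33.2, 73.4 and 23 CPM on day 4 in KO libraries, with no overlap between days (day 4 against day 2: -2.80 ± 0.26, adjusted p = 1.5e-08). ENO2 in KO cells of day 4 had 41.8, 32, 33.1 and 117 CPM, 1 library far above the rest. Its rise of 1.20 ± 0.32 (adjusted p = 0.004) became 0.55 with adjusted p = 0.05 without KO day 4 replicate 4. PDK4, a pyruvate dehydrogenase kinase, was the gene called higher at day 2 in KO cells, at 1.14 ± 0.53 CPM against 0.217 ± 0.052 CPM on day 0 (+2.32 ± 0.55, adjusted p = 0.0015).

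**Figure D3:**
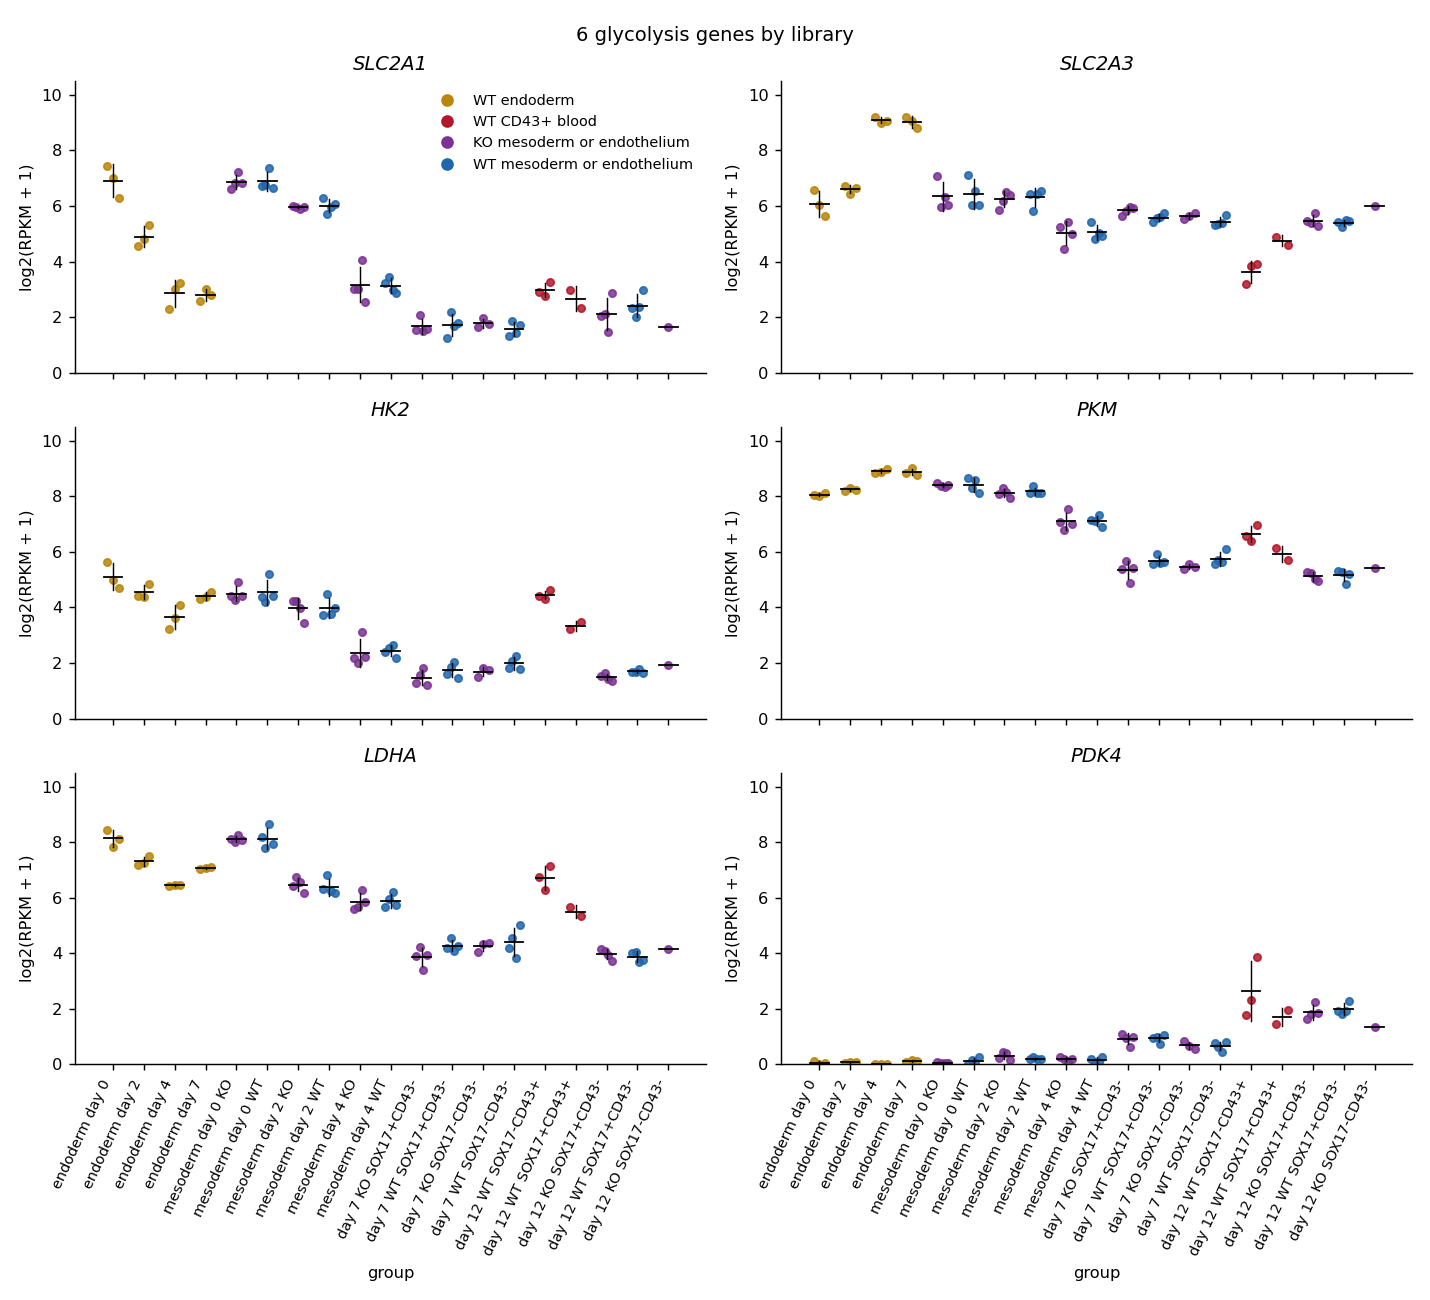
Levels of 6 of the genes in every library (points, log2(RPKM + 1) on the vertical axis) by group, with mean (bar) and SD (line). SLC2A1 and HK2 are high at day 0 and low in sorted CD43- endothelium, SLC2A3 and PKM are high in endoderm of days 4 and 7, LDHA is high at day 0, in endoderm and in CD43+ cells, and PDK4 is low before day 7.

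Lists of genes outside the 31 were counted over the same steps of WT mesoderm. The background was 45.1% at day 2 (22.9% lower, 22.2% higher) and 51.4% at day 4 (25.5% lower, 25.9% higher). Of 20 hypoxia targets that are not glycolytic, 8 were lower and 3 higher at day 2 than at day 0 (median log2 fold change -0.86), and 4 were lower and 8 higher at day 4 than at day 2 (median 0.63). At day 2, AK4, a mitochondrial adenylate kinase, averaged 9.22 ± 2.80 CPM against 112 ± 35.9 CPM on day 0, while CA12, a carbonic anhydrase, averaged 509 ± 80.3 CPM against 3.78 ± 0.97 CPM. Of 16 tricarboxylic acid cycle genes, 5 were lower and 3 higher at day 2 (median -0.11) and 2 lower and 5 higher at day 4 (median 0.06). Of 18 regulators of glycolytic genes, 6 were lower and 2 higher at day 2 and 7 lower and 4 higher at day 4. TXNIP, which binds thioredoxin and limits glucose uptake, averaged 154 ± 65.1 CPM on day 4 and 12.3 ± 5.13 CPM on day 2 (log2 fold change 3.66 ± 0.59, adjusted p = 2.4e-05), and MYC averaged 23 ± 4.87 CPM on day 4 and 90.4 ± 22 CPM on day 2 (-1.97 ± 0.40, adjusted p = 0.00028). Proliferation markers (8 genes) summed to 1911 to 2415 CPM on day 4 and 2082 to 2194 CPM on day 2, and mesenchyme markers to 1126 to 6932 CPM on day 4 and 449.9 to 515 CPM on day 2. Their part in the changes was not tested.

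In endoderm transcripts of the pathway diverged: SLC2A1 fell while SLC2A3 and PKM rose, and most other genes fell. Of the 31 genes 29 passed the filter on low counts (HK3 and PDK4 did not). At day 2 against day 0, 12 were lower and 4 higher (background 55.5%, with 26.8% lower and 28.7% higher; medians -0.17 for the genes and 0.02 for all). At day 4 against day 2, 21 were lower and 3 higher (background 42.4%, with 20.2% lower and 22.2% higher; medians -0.86 and 0.01). At day 7 against day 4, 3 were lower and 3 higher (background 21.3%, with 10.1% lower and 11.2% higher; medians -0.04 and -0.03). In all, 11 genes fell at both of the earlier steps, which share the day 2 libraries, and 5 of them lost a call when 1 library was left out. At day 2 HK2 lost its call without endoderm day 0 replicate 1 or day 2 replicate 1 or 2 (adjusted p between 0.125 and 0.28). PGK1 lost it without any 1 of those 3 libraries or day 0 replicate 3 (between 0.0561 and 0.144), and PFKFB3 without day 0 replicate 1 (0.064). At day 4 ENO1 lost its call without day 2 replicate 2 or 3 or day 4 replicate 1 or 3 (between 0.0676 and 0.097). PFKP lost it without day 2 replicate 2 or 3 or day 4 replicate 1 or 2 (between 0.0569 and 0.0884), and PFKFB3 without day 4 replicate 1 (0.0512). Among the genes called higher at day 2, SLC2A3, PFKFB1 and PFKFB4 each lost the call without any 1 of 4 libraries (between 0.0502 and 0.178). PFKL, higher at day 4, lost it without day 4 replicate 3 (0.0508). HK2, higher at day 7, lost it without any 1 of 5 libraries (between 0.0662 and 0.153).

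SLC2A3 had 578, 402 and 299 CPM on day 0, 642, 529.6 and 608 CPM on day 2, 3613, 3135 and 3320.3 CPM on day 4 and 3656, 3265 and 2727 CPM on day 7. The libraries of days 4 and 7 lay far above the earlier ones (day 4 against day 2: +2.51 ± 0.19, adjusted p = 2.2e-07). SLC2A1 went the other way, with 818, 604 and 363 CPM on day 0, 107, 127 and 183 CPM on day 2, 18.7, 33.4 and 39.9 CPM on day 4 and 23.1, 33.2 and 28.2 CPM on day 7. It fell at day 2 (-2.09 ± 0.30, adjusted p = 4.3e-05) and again at day 4 (-2.17 ± 0.31, adjusted p = 7.1e-05), and the libraries of days 4 and 7 overlapped. SLC16A1 was lower at day 2 than at day 0 (-0.80 ± 0.09, adjusted p = 6.1e-06) and lower at day 7 than at day 4 (-0.66 ± 0.09, adjusted p = 0.00018).

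HK1 had 454, 457 and 421 CPM on day 0, 137, 159 and 179 CPM on day 2, 99.1, 76 and 86.7 CPM on day 4 and 70.6, 68.4 and 73 CPM on day 7 of the endoderm protocol. It fell at day 2 (-1.48 ± 0.11, adjusted p = 8.3e-08) and at day 4 (-0.85 ± 0.11, adjusted p = 3.3e-05). PKM had 2283, 2228 and 2361 CPM on day 0, 2528, 2696 and 2598 CPM on day 2, 3954, 4038 and 4322 CPM on day 4 and 3914, 4427 and 3751 CPM on day 7. Its libraries of days 4 and 7 did not overlap with those of days 0 and 2 (day 4 against day 2: +0.67 ± 0.08, adjusted p = 2.2e-05). PFKP, the platelet-type phosphofructokinase, fell at day 2 (-1.07 ± 0.16, adjusted p = 5.1e-05) and had 102, 122 and 111 CPM on day 7 against 55.9, 47.8 and 77.1 CPM on day 4 (+0.89 ± 0.16, adjusted p = 0.001).

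LDHA had 2173, 1423 and 1741 CPM on day 0, 891, 939 and 1127 CPM on day 2, 525, 546 and 544 CPM on day 4 and 809, 829 and 853 CPM on day 7 in endoderm. It fell at day 2 (-0.85 ± 0.13, adjusted p = 8.2e-05) and at day 4 (-0.86 ± 0.13, adjusted p = 0.00012) and rose at day 7 (+0.63 ± 0.13, adjusted p = 0.0032), without overlap at any of the steps. LDHB, the heart-type subunit, fell at day 4 to 462 ± 22.3 CPM, against 1032 ± 36.7 CPM on day 2 (-1.15 ± 0.08, adjusted p = 1.2e-07). ALDOC had 73.1, 57.1 and 74.7 CPM on day 0, 63.1, 70.7 and 82 CPM on day 2, 11.3, 6.25 and 19.3 CPM on day 4 and 7.18, 10.0 and 8.65 CPM on day 7, so that its fall came at day 4 (-2.53 ± 0.28, adjusted p = 6.9e-06). ENO2 followed the same days, with 109.8, 84.6 and 110.3 CPM on day 0, 100.1, 104 and 171 CPM on day 2 and 19.3, 13.7 and 37.7 CPM on day 4 (-2.40 ± 0.31, adjusted p = 3e-05). GAPDH (-0.999 ± 0.102) and PGK1 (-1.02 ± 0.15) were lower at day 4 than at day 2.

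PDK2 was higher at day 2, at 20.6 ± 1.89 CPM against 8.57 ± 1.56 CPM on day 0 (+1.27 ± 0.15, adjusted p = 6.4e-06). PDK3, another pyruvate dehydrogenase kinase, was lower at day 4 than at day 2 (-1.17 ± 0.17, adjusted p = 0.0001). PDK4 had 0 counts in all 3 libraries of day 4 and 13 counts at day 2, which makes it at least 4.12-fold lower at day 4 when 3 counts over the group are taken as the floor. Proliferation markers fell together at day 4 (8 of 8 lower than at day 2, median -1.26), to summed levels of 844 to 895 CPM against 2365 to 2524 CPM, and rose at day 7 (8 of 8, median 0.70), to summed levels of 1381 to 1454 CPM. Their part in the falls of the 31 genes was not tested. Of the 16 tricarboxylic acid cycle genes, 8 were lower and 1 higher at day 4 than at day 2 (median -0.24). The background at that step was 20.2% lower and 22.2% higher.

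The difference between the protocols was tested as the endoderm change minus the mesoderm change from day 0, in WT libraries with separate day 0 groups. For the change to day 2, 7 of the 31 genes differed, 5 higher and 2 lower (background 29.5%, with 15.5% higher and 13.9% lower). For the change to day 4, 10 differed, 3 higher and 7 lower (background 40.4%, with 20.5% higher and 19.9% lower). At day 2 the change of ENO2 was 2.67 ± 0.37 log2 units higher in endoderm (adjusted p = 2.4e-05), that of ALDOC 1.79 ± 0.43 higher (adjusted p = 0.0038) and that of PGK1 1.00 ± 0.24 higher (adjusted p = 0.0034). HK1 differed in the opposite direction, by -1.30 ± 0.15 at day 2 (adjusted p = 4.4e-06) and -1.14 ± 0.15 at day 4 (adjusted p = 5.9e-06). At day 4 the change of SLC2A3 was 4.45 ± 0.36 higher in endoderm (adjusted p = 6.7e-09), that of PKM 2.15 ± 0.17 higher (adjusted p = 2.9e-09) and that of PFKL 1.26 ± 0.18 higher (adjusted p = 8.1e-06). LDHB differed by -1.14 ± 0.11 (adjusted p = 1.1e-07) and PFKM by -0.78 ± 0.14 (adjusted p = 0.00019), both lower in endoderm. The opposite courses of SLC2A3 are visible in the group means, 3356 ± 241 CPM in endoderm and 201 ± 41.6 CPM in mesoderm at day 4, against 426 ± 141 CPM and 554 ± 218 CPM on day 0 of the 2 protocols.

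SOX17+ endothelium of day 7 had lower levels of 16 of these genes than mesoderm of day 4, and higher levels of PDK4 and PDK2, kinases that restrain pyruvate oxidation. Against unsorted WT mesoderm of day 4, 16 of the 30 tested genes were lower and 4 higher, and HK3 did not pass the filter. The background was 62.8%, with 31.1% lower and 31.7% higher, and the medians were -0.58 for the genes and -0.02 for all tested genes. The gate, the day and the range of library numbers in the titles changed together and cannot be told apart in this comparison.

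LDHA had 108, 140.4, 99.8 and 112 CPM in SOX17+ endothelium of day 7, against 312, 384, 455 and 323 CPM in mesoderm of day 4 (-1.67 ± 0.16, adjusted p = 9.4e-06). SLC2A1 had 6.44, 16.6, 10.2 and 11.7 CPM in the endothelium, against 39.7, 47.2, 32 and 30.1 CPM in the mesoderm (-1.71 ± 0.25, adjusted p = 0.00021). PKM had 400.3, 507, 412 and 420.1 CPM in the endothelium, against 1215, 1170.1, 1371 and 1013 CPM in the mesoderm (-1.44 ± 0.13, adjusted p = 6.3e-06). All 4 endothelial libraries lay below all mesoderm libraries for each of these genes. TPI1 (-1.23 ± 0.10), ALDOA (-1.15 ± 0.13) and GAPDH (-1.11 ± 0.12) were lower by similar amounts, and SLC16A3, the lactate exporter MCT4, averaged 25.3 ± 6.71 CPM in the endothelium against 64.7 ± 14.1 CPM in the mesoderm (-1.34 ± 0.21, adjusted p = 0.0003).

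PDK4 had 4.25, 4.48, 3 and 4.97 CPM in the endothelium of day 7, against 0.61, 0.302, 0.296 and 0.987 CPM in mesoderm of day 4 (+2.95 ± 0.36, adjusted p = 5.4e-05). PDK2 had 36.6, 39.8, 36.5 and 41.7 CPM in the endothelium, against 25.1, 21.7, 14.2 and 23.9 CPM in the mesoderm (+0.88 ± 0.16, adjusted p = 0.00072). All endothelial libraries were above all mesoderm libraries for both kinases. PDK3 was called higher by a small amount (+0.32 ± 0.13, adjusted p = 0.0449), a call lost without any 1 of 7 of the 8 libraries, all except WT day 4 replicate 3 (adjusted p between 0.0538 and 0.133), and PDK1 was not called (-0.34 ± 0.41). SLC2A3 was also higher, at 259, 283, 293 and 326 CPM against 260.1, 165, 196 and 182 CPM (+0.55 ± 0.14, adjusted p = 0.0059), with 1 mesoderm library reaching the endothelial range. Of the 16 tricarboxylic acid cycle genes 11 were lower and 0 higher in the endothelium (median -0.47), as were 6 of 10 genes of pyruvate dehydrogenase and mitochondrial pyruvate entry, with 2 higher (median -0.58), and 4 of 7 pentose phosphate genes, with 2 higher (median -0.72). Among them DLAT, a subunit of pyruvate dehydrogenase, was lower (-1.23 ± 0.10). The background in this comparison was 31.1% lower and 31.7% higher. All 8 proliferation markers were lower in the endothelium (median -2.03), at a summed 547 to 730.3 CPM against 1911 to 2415 CPM, and mesenchyme markers summed to 478 to 792 CPM against 1126 to 6932 CPM. Their part in the differences of the 31 genes was not tested.

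Between days 7 and 12, SOX17+ CD43- endothelium fell in several genes of the pathway, while PDK4 rose. In WT cells 12 of the 31 genes were lower and 2 higher at day 12 (background 17.8%, with 9.23% lower and 8.57% higher; medians -0.35 and -0.01). In KO cells 6 were lower and 1 higher (background 13.3%, with 7.29% lower and 6% higher; median -0.23). The 6 genes lower in KO cells (ALDOA, ALDOC, LDHB, PFKP, SLC16A1 and SLC16A3) and PDK4 were called in both lines. The number of WT genes called fell to 8 of the 14 when WT day 12 replicate 3 was left out. The genes PFKP, ENO2, ALDOC, SLC16A3, SLC16A1, ENO1, LDHB and PDK4 kept their calls when any 1 library was left out. The KO call of ALDOA was lost on leaving out any 1 of 3 libraries (KO day 7 replicate 2 and KO day 12 replicates 3 and 4), at adjusted p between 0.0699 and 0.0936, and that of LDHB on leaving out KO day 12 replicate 2 or 4, at adjusted p between 0.0512 and 0.0546.

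PFKP had 24.8, 15.5, 12.5 and 17.6 CPM in WT endothelium of day 12, against 45.4, 59.3, 37.6 and 47.8 CPM on day 7 (-1.42 ± 0.18, adjusted p = 1.8e-06). SLC16A3 had 13.2, 10.9, 10.6 and 16.6 CPM on day 12, against 23, 32.8, 17.3 and 28.1 CPM on day 7 (-0.97 ± 0.23, adjusted p = 0.0031). SLC16A1 averaged 193 ± 26.7 CPM on day 12 and 297 ± 37.1 CPM on day 7 (-0.62 ± 0.14, adjusted p = 0.0019). The libraries of day 12 lay below those of day 7 for each of these 3 genes. PDK4 had 12.8, 11.4, 12.8 and 17.6 CPM in WT endothelium of day 12, against 4.25, 4.48, 3 and 4.97 CPM on day 7 (+1.72 ± 0.36, adjusted p = 0.0012). In KO endothelium it had 9.43, 11.4, 17.1 and 11.7 CPM on day 12, against 5.1, 4.33, 2.55 and 4.56 CPM on day 7 (+1.57 ± 0.36, adjusted p = 0.0033), and in both lines the 2 days did not overlap. SLC2A1 was the second WT gene called higher, at 21.2 ± 7.70 CPM on day 12 against 11.2 ± 4.21 CPM on day 7 (+0.92 ± 0.31, adjusted p = 0.0371), with overlapping libraries. Its call was lost without WT day 7 replicate 1, 3 or 4 or WT day 12 replicate 3 or 4, at adjusted p between 0.0559 and 0.172, and with limma (0.0551). Proliferation markers summed to 234 to 485 CPM on day 12 against 547 to 730.3 CPM on day 7 in WT cells, and 6 of the 8 were lower.

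Endoderm and endothelium both express SOX17 at day 7, yet differed widely in these genes. Endoderm of day 7 against WT SOX17+ endothelium of day 7 had 17 of 30 tested genes higher and 9 lower. The background was 71.6%, with 35.3% higher and 36.3% lower, and the medians were 0.50 for the genes and -0.04 for all. The protocol, the sort, the lineage and the range of library numbers in the titles differ together here and cannot be told apart.

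SLC2A3 had 3656, 3265 and 2727 CPM in endoderm, against 259, 283, 293 and 326 CPM in endothelium (+3.48 ± 0.13, adjusted p = 3e-10). PKM had 3914, 4427 and 3751 CPM in endoderm, against 400.3, 507, 412 and 420.1 CPM in endothelium (+3.23 ± 0.12, adjusted p = 3e-10). HK2 had 113, 119 and 137 CPM in endoderm, against 12.6, 15.9, 19.1 and 10.8 CPM in endothelium (+3.09 ± 0.17, adjusted p = 7.1e-09). LDHA had 809, 829 and 853 CPM in endoderm, against 108, 140.4, 99.8 and 112 CPM in endothelium (+2.87 ± 0.12, adjusted p = 5.9e-10). For these genes of glucose import, trapping, pyruvate formation and lactate formation, every endoderm library was several times above every endothelial library. PFKFB4 (+2.02 ± 0.17), SLC16A3 (+1.38 ± 0.20), PFKL (+1.33 ± 0.11) and PFKP (+1.25 ± 0.13) were higher in endoderm too.

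The genes that were lower in endoderm were mostly alternative isoforms and regulators. PDK4 had 0.299, 0.479 and 0.429 CPM in endoderm, against 4.25, 4.48, 3 and 4.97 CPM in endothelium (-3.34 ± 0.30, adjusted p = 8.6e-07). PDK2 had 11.5, 12.9 and 11.6 CPM in endoderm, against 36.6, 39.8, 36.5 and 41.7 CPM in endothelium (-1.67 ± 0.11, adjusted p = 4.9e-08). HK1 had 70.6, 68.4 and 73 CPM in endoderm, against 198, 227, 172 and 218 CPM in endothelium (-1.51 ± 0.11, adjusted p = 8.6e-08). No library of either group overlapped with the other for these 3 genes. Beside the lists that follow, 35.3% of all tested genes were called higher and 36.3% lower in endoderm. Of 10 genes of pyruvate dehydrogenase and mitochondrial pyruvate entry, 6 were higher and 2 lower in endoderm (median 0.85), and of 16 tricarboxylic acid cycle genes 5 were higher and 3 lower (median 0.18). Of 19 hypoxia targets outside glycolysis 10 were higher and 7 lower in endoderm (median 0.76), among them VEGFA, the vascular growth factor, at 324 ± 82.9 CPM in endoderm against 12.4 ± 2.49 CPM in endothelium. TXNIP averaged 9.08 ± 2.74 CPM in endoderm and 419 ± 97.5 CPM in endothelium (-5.52 ± 0.26, adjusted p = 1.8e-09). All 8 proliferation markers were higher in endoderm (median 1.40), at a summed 1381 to 1454 CPM against 547 to 730.3 CPM in the endothelium. Their part was not tested.

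**Figure D4:**
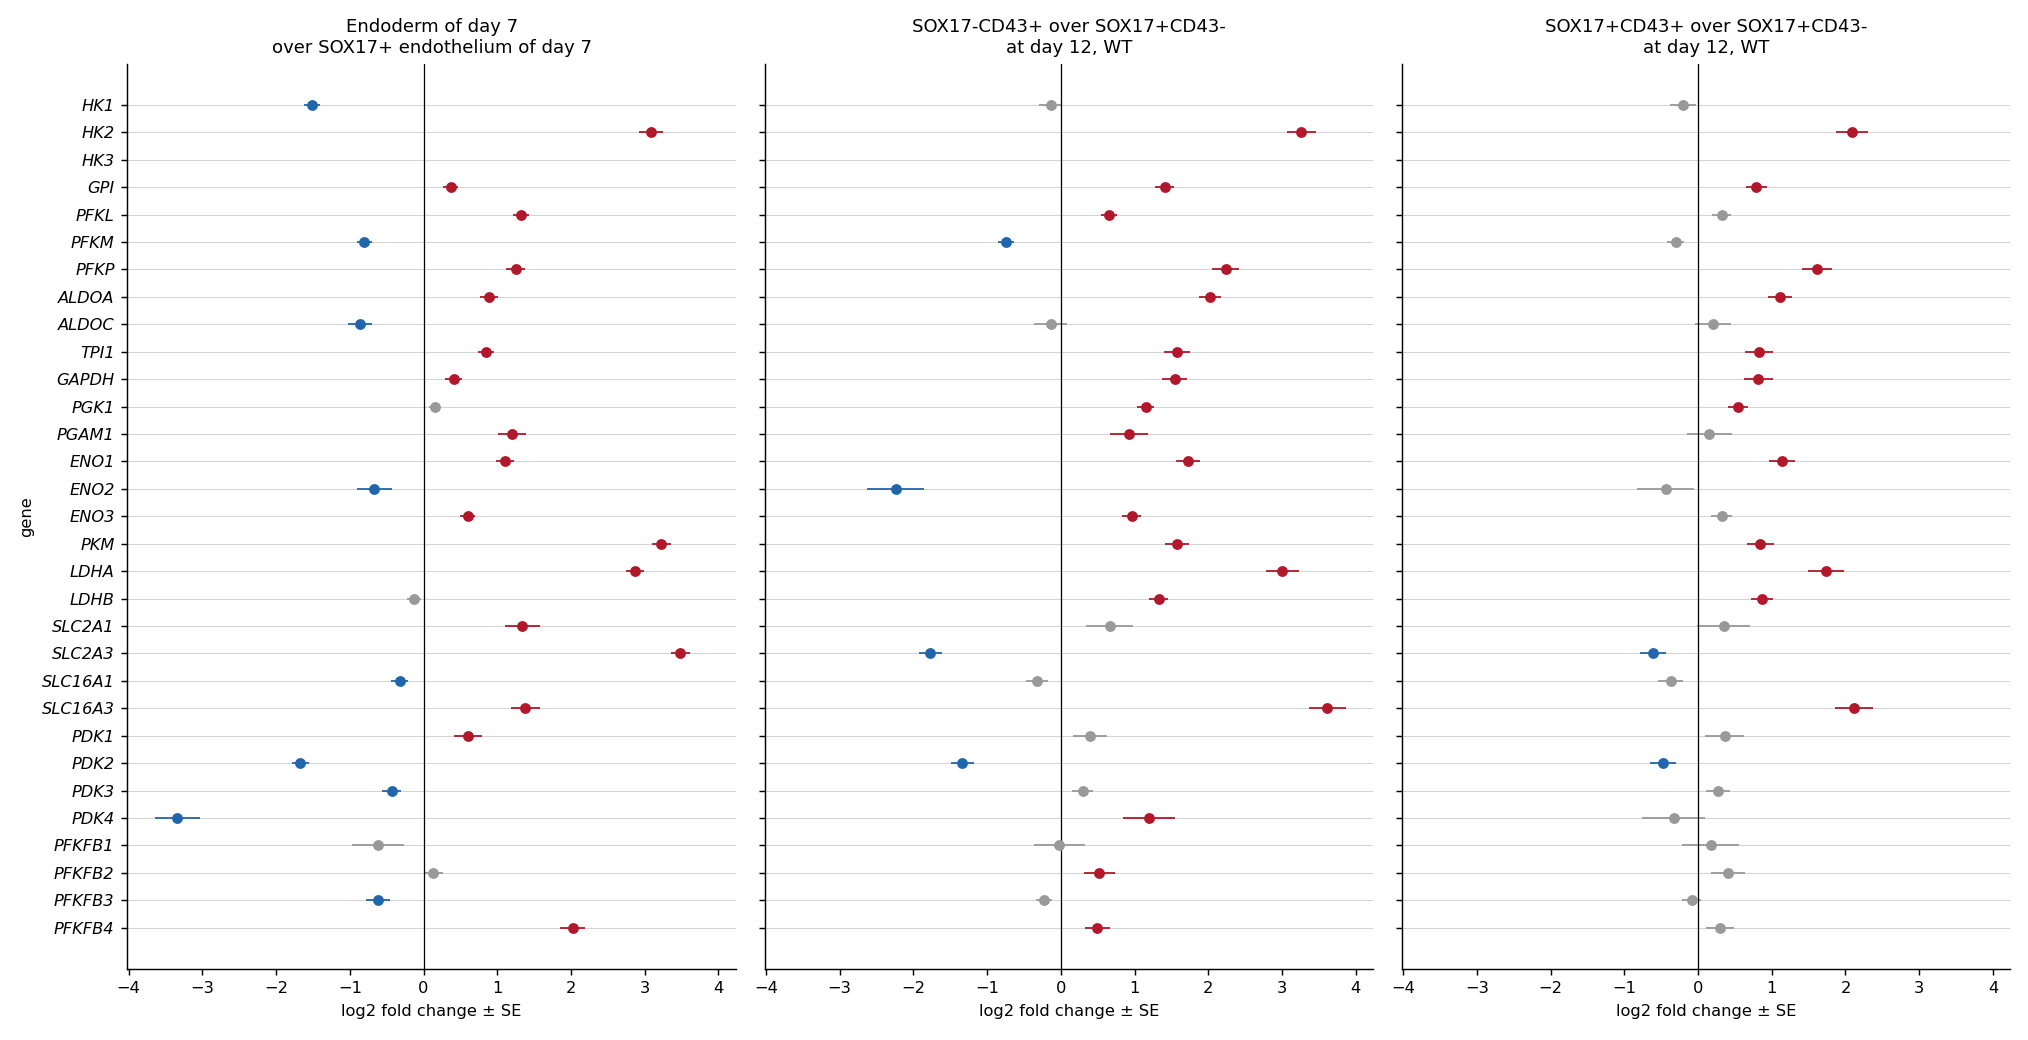
Log2 fold change with SE (horizontal axis) of each tested gene (vertical axis) in 3 comparisons; red points were called higher, blue points lower, grey points not called. Left, SLC2A3, PKM, HK2 and LDHA stand highest in endoderm of day 7 over SOX17+ endothelium; centre and right, SLC16A3, HK2 and LDHA stand highest in the CD43+ fractions over SOX17+CD43- endothelium; HK3 is left out of the centre and right panels because the endothelium had 2 counts in all.

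The emerging blood cells had higher transcript levels for nearly every step from glucose phosphorylation to lactate export than the endothelium beside them. In SOX17-CD43+ cells of day 12, 19 of the 31 genes were higher and 4 lower than in SOX17+CD43- WT endothelium (background 66.2%, with 32.3% higher and 33.9% lower; medians 0.93 and -0.02). In SOX17+CD43+ cells 13 were higher and 2 lower (background 26.5%, with 15.5% higher and 10.9% lower; medians 0.35 and -0.01). Both comparisons use the same 4 endothelial libraries. The 13 genes higher in SOX17+CD43+ cells were all among the 19, and PDK2 and SLC2A3 were called lower in both CD43+ fractions. The PDK2 call in SOX17+CD43+ cells (-0.48 ± 0.18, adjusted p = 0.0447) was lost without either SOX17+CD43+ library or without SOX17+CD43- replicate 2, 3 or 4, at adjusted p between 0.0542 and 0.187. It was also lost with library size alone (0.079), no filter (0.0594) and the library run block (0.0579).

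SLC16A3 had 109.7, 124 and 221 CPM in SOX17-CD43+ cells and 58.3 and 48.5 CPM in SOX17+CD43+ cells, against 13.2, 10.9, 10.6 and 16.6 CPM in SOX17+CD43- cells (SOX17-CD43+: +3.61 ± 0.25, adjusted p = 6.9e-13; SOX17+CD43+: +2.12 ± 0.26, adjusted p = 6.1e-07). HK2 had 122, 115 and 142 CPM in SOX17-CD43+ cells and 50.2 and 60.9 CPM in SOX17+CD43+ cells, against 13.3, 13.3, 14.7 and 13.1 CPM in SOX17+CD43- cells (+3.26 ± 0.20, adjusted p = 6.3e-14, and +2.09 ± 0.21, adjusted p = 1.9e-08, in the same order). LDHA had 662, 479 and 864 CPM in SOX17-CD43+ cells and 309 and 245 CPM in SOX17+CD43+ cells, against 95.4, 96.8, 73.6 and 78.7 CPM in SOX17+CD43- cells (+3.01 ± 0.23, adjusted p = 6.6e-12, and +1.74 ± 0.24, adjusted p = 4.4e-06). For all 3 genes the groups did not overlap, and the SOX17+CD43+ libraries lay between the other groups. The 2 CD43+ fractions were not tested against each other.

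PFKP (+2.24 ± 0.19), ALDOA (+2.02 ± 0.15), ENO1 (+1.73 ± 0.16), TPI1 (+1.58 ± 0.17), PKM (+1.58 ± 0.17), GAPDH (+1.54 ± 0.18), GPI (+1.41 ± 0.13), LDHB (+1.33 ± 0.13) and PGK1 (+1.15 ± 0.12) were also higher in SOX17-CD43+ cells. HK3, the hexokinase of leukocytes, had 124 counts in the 3 SOX17-CD43+ libraries and 2 counts in the 4 SOX17+CD43- libraries, a ratio of 83.6 per unit of depth with a 95% counting interval of 22.7 to 698. In the 2 SOX17+CD43+ libraries HK3 had 39 counts (ratio 48, interval 12.4 to 410). The SOX17-CD43+ libraries were uneven, at 0.951, 0.924 and 5.34 CPM of HK3. PDK4 was uneven in the same way, with 10.9, 18.2 and 61.5 CPM in SOX17-CD43+ cells against 12.8, 11.4, 12.8 and 17.6 CPM in SOX17+CD43- cells, and its call (+1.20 ± 0.35, adjusted p = 0.0043) was lost without SOX17-CD43+ replicate 3 (+0.12, adjusted p = 0.73).

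The genes that went against the rest in blood cells were SLC2A3, ENO2, PDK2 and PFKM. SLC2A3 had 49.6, 81.1 and 86 CPM in SOX17-CD43+ cells, against 259, 226, 269 and 263 CPM in SOX17+CD43- cells (-1.77 ± 0.16, adjusted p = 1.6e-10). ENO2 had 1.37, 1.62 and 3.77 CPM in SOX17-CD43+ cells, against 11, 11.7, 7.83 and 13.8 CPM in SOX17+CD43- cells (-2.24 ± 0.38, adjusted p = 1.1e-05). PDK2 averaged 18.3 ± 5.82 CPM in SOX17-CD43+ cells and 47.7 ± 4.63 CPM in SOX17+CD43- cells (-1.33 ± 0.16, adjusted p = 3.1e-08), and PFKM was lower by -0.74 ± 0.10 on the log2 scale. None of these groups overlapped. In SOX17+CD43+ cells SLC2A3 had 176 and 144 CPM, and its call there (-0.61 ± 0.17, adjusted p = 0.0097) was lost without SOX17+CD43+ replicate 2 (-0.52, adjusted p = 0.12). Leaving out SOX17+CD43+ replicate 1 ended the calls of GAPDH, PGK1, PKM, TPI1 and PDK2 in that fraction, at adjusted p of 0.0585, 0.0921, 0.0745, 0.187 and 0.187.

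Neighbouring pathways rose as well in SOX17-CD43+ cells: 15 of 16 tricarboxylic acid cycle genes were higher (median 0.82), 6 of 7 pentose phosphate genes (median 0.88) and 7 of 10 genes of pyruvate dehydrogenase and mitochondrial pyruvate entry, with 1 lower (median 0.78). IDH3A, a subunit of isocitrate dehydrogenase, was higher (+1.69 ± 0.15), and TALDO1, transaldolase, was higher (+1.96 ± 0.16). The background in this comparison was 32.3% higher and 33.9% lower. Of 19 hypoxia targets outside glycolysis 10 were lower and 4 higher (median -0.69), and MYC was higher, at 282 ± 26.1 CPM against 35.3 ± 9.05 CPM (+3.04 ± 0.24, adjusted p = 1.6e-11). All 8 proliferation markers were higher, at a summed 1517 to 2256 CPM in SOX17-CD43+ cells and 902 to 1173 CPM in SOX17+CD43+ cells against 234 to 485 CPM in SOX17+CD43- cells, and mitochondrial transcripts took 8.65%, 6.85% and 4.57% of counts on average in the same order. The part of cycling and of mitochondrial reads in these differences was not tested. Endothelial markers (9 genes) summed to 136 to 345 CPM in SOX17-CD43+ cells, 5727 to 5770.2 CPM in SOX17+CD43+ cells and 11065 to 13993 CPM in SOX17+CD43- cells. Blood cell markers (8 genes) summed to 4199.9 to 5198 CPM in SOX17-CD43+ cells, 1045 to 1296 CPM in SOX17+CD43+ cells and 8.20 to 16.4 CPM in SOX17+CD43- cells.

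No gene of the 31 was called between KO and WT cells at any day. At day 0, day 2 and day 4 of mesoderm 0 of 31 were called (background 0% at each), in SOX17+ cells of day 7 0 (background 0.0566%), in SOX17- cells of day 7 0 (background 0.0087%) and in SOX17+CD43- cells of day 12 0 (background 0.187%). DESeq2 and limma called 0 in each as well, and at an unadjusted p under 0.05 edgeR gave 0, 1, 1, 3, 2 and 0 genes in the same order. The largest shifts among those were HK2 at -0.39, ENO1 at -0.33 ± 0.15 and SLC2A3 at +0.29 in SOX17+ cells of day 7, and TPI1 at -0.40 and LDHB at -0.31 in SOX17- cells of day 7. In the SOX17- comparison WT replicate 4 stood above the other WT libraries, with 1003 CPM of LDHB beside 600.2, 614 and 545 CPM and 1129 CPM of GAPDH beside 637, 682 and 585 CPM. Log2 fold changes of the 31 genes ranged from -1.002 to 0.957 at day 0, from -1.19 to 0.68 at day 2, from -0.29 to 0.90 at day 4, from -0.39 to 0.29 and from -0.40 to 0.29 in SOX17+ and SOX17- cells of day 7, and from -0.31 to 0.35 at day 12. These tests do not show that the lines have equal levels.

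Between SOX17+ and SOX17- cells of day 7, 0 of the 31 genes were called in WT cells (background 1.6%) and 0 in KO cells (background 0.67%), also by DESeq2 and limma, with 2 and 1 genes at an unadjusted p under 0.05. SLC16A1 was one of them in both lines, at -0.34 ± 0.14 in WT cells (adjusted p = 0.29) and -0.41 ± 0.15 in KO cells (adjusted p = 0.28). When the KO SOX17+ and SOX17- libraries were fitted without the other groups, SLC16A1 passed the threshold in KO cells (adjusted p = 0.029).

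The balance between isoforms shifted with cell type, measured as the difference of log2(RPKM + 1) within a library. RPKM divides by a length for each gene, so which isoform of a pair is higher depends on the lengths taken. For glucose transport, SLC2A1 minus SLC2A3 was 0.45 ± 0.57 on day 0, -0.30 ± 0.21 on day 2 and -1.91 ± 0.39 on day 4 of WT mesoderm, and -3.86 ± 0.34 in SOX17+ endothelium of day 7. In endoderm it was 0.83 ± 0.16 on day 0, -1.71 ± 0.42 on day 2, -6.24 ± 0.57 on day 4 and -6.23 ± 0.37 on day 7. SOX17-CD43+ cells had the smallest difference among the sorted WT groups, at -0.67 ± 0.39, against -2.98 ± 0.34 in SOX17+CD43- cells. For lactate dehydrogenase, LDHA minus LDHB was -0.22 ± 0.31 on day 0, -2.10 ± 0.31 on day 2 and -2.44 ± 0.21 on day 4 of WT mesoderm and -3.34 ± 0.17 in SOX17+ endothelium of day 7. In endoderm that difference was -0.29 ± 0.25 on day 0, -1.13 ± 0.21 on day 2, -0.83 ± 0.05 on day 4 and -0.40 ± 0.08 on day 7. SOX17-CD43+ cells had -1.62 ± 0.37, against -3.19 ± 0.19 in SOX17+CD43- cells.

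On average HK1 exceeded HK2 per length in all groups except endoderm of day 7. HK1 minus HK2 was 1.83 ± 0.36 on day 0, 2.22 ± 0.32 on day 2 and 2.75 ± 0.21 on day 4 of WT mesoderm, and 3.35 ± 0.38 in SOX17+ endothelium of day 7. In endoderm it was 1.10 ± 0.44 on day 0, 0.20 ± 0.16 on day 2, 0.28 ± 0.54 on day 4 and -0.75 ± 0.11 on day 7. SOX17-CD43+ cells had 0.11 ± 0.26, against 3.07 ± 0.19 in SOX17+CD43- cells. For lactate carriers, SLC16A1 minus SLC16A3 was 0.73 ± 0.31 in SOX17-CD43+ cells and 2.02 ± 0.11 in SOX17+CD43+ cells, against 3.94 ± 0.06 in SOX17+CD43- cells. Per length, MCT1 values were above MCT4 values in each of these groups, and least so in SOX17-CD43+ cells. Annotated exons cover 5312 bases for SLC16A1 and 8995 for SLC16A3, so the excess in SOX17-CD43+ cells depends on the lengths taken. These differences are given with SD over libraries and were not tested.

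**Figure D5:**
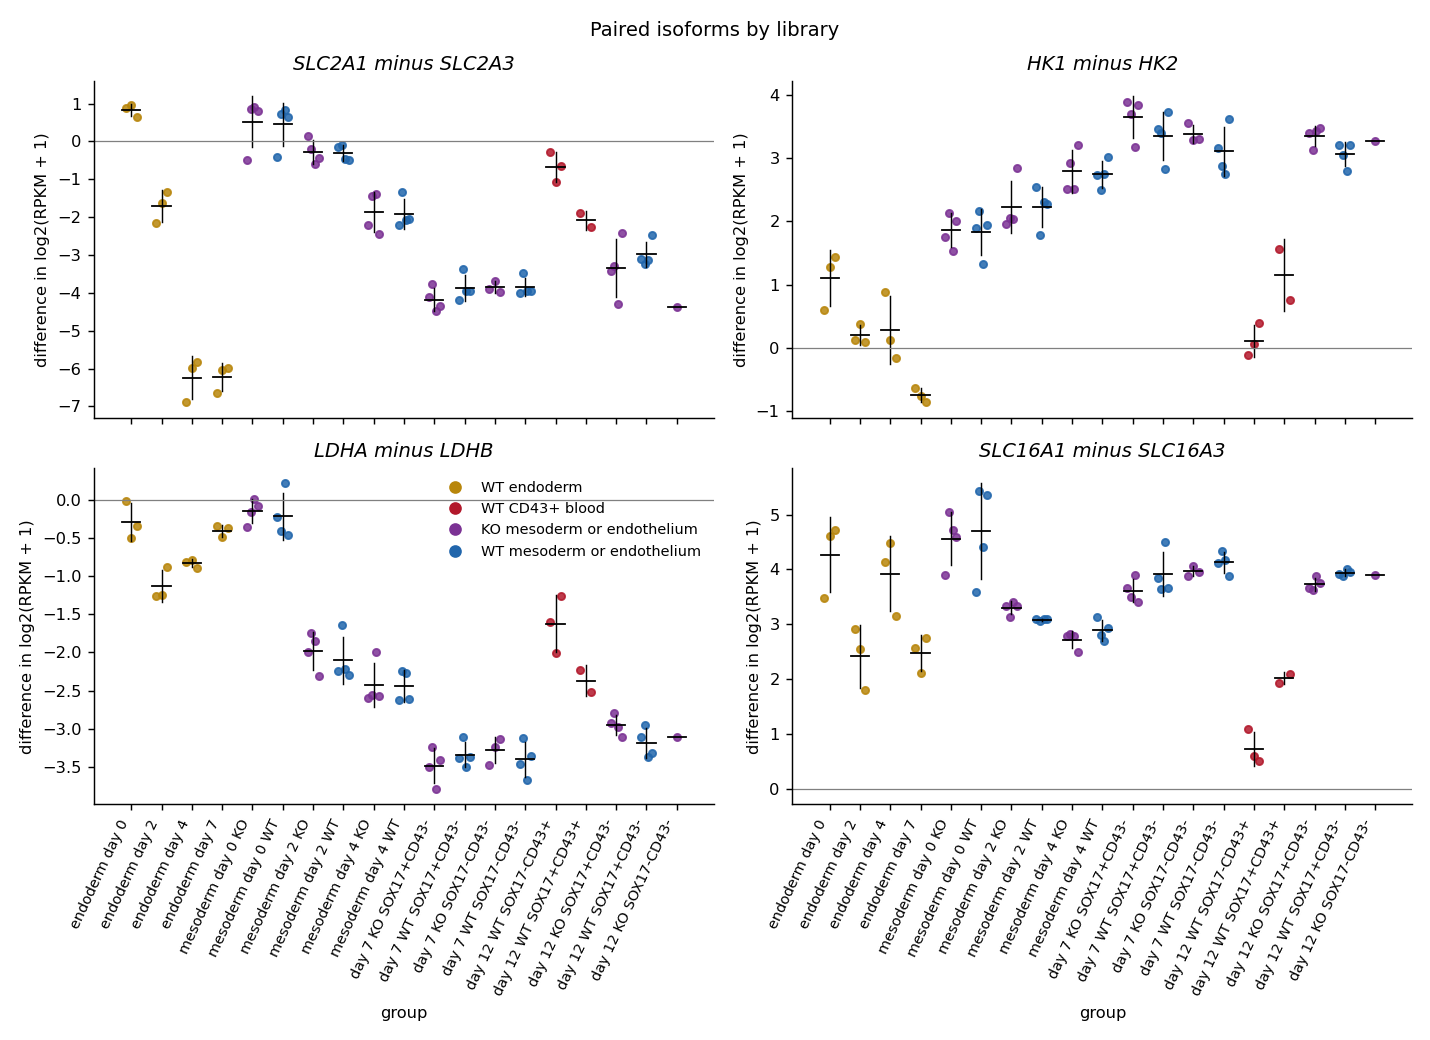
Difference of log2(RPKM + 1) between the paired isoforms within each library (points) by group, with mean (bar), SD (line) and the level of equal values per length (grey line at 0). SLC2A1 minus SLC2A3 is lowest in endoderm of days 4 and 7, and HK1 minus HK2 is below 0 in endoderm of day 7.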

How the data were processed

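Total RNA sequencing of 65 libraries in 19 groups was used, 18 of them with replicates. The authors deposited whole-number counts per gene and log2 values, which are log2(RPKM + 1) after trimmed-mean (TMM) scaling as judged from the values. Per the submitters' processing notes, cutadapt 1.18, featureCounts, R 3.2.2 and the GRCh38 build were used, with no roles given. Of 58302 gene identifiers, 58039 were named in GENCODE 29 and 263 were not. Library totals ran from 10366048 to 19081031 counts, and intervals and floors cover counting error only.

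The counts were tested with edgeR 4.0.16 (R 4.3.3) by its quasi-likelihood test, after TMM scaling and a filter on low counts (at least 10 counts in enough libraries for the group size and 15 in all), with Benjamini-Hochberg adjustment over all tested genes and a threshold of 0.05. There were 23 comparisons in 6 fits, and comparisons that use a common group share its libraries. CPM values are counts scaled to library size with TMM factors over all libraries, and a mean is given with the SD over libraries. Alternatives were DESeq2 1.42.0, limma 3.58.1 on the deposited log2 values, other scaling, no filter, the compared groups alone, a replicate block, a block of library runs (runs of consecutive library numbers in the titles), and leaving out each library in turn. The fits were tested on simulated data first. Genes were named with values per library where they were called without overlap, largest change first, up to 8 per comparison, with any that moved against the rest; from other lists up to 4 called genes of largest change were named. The members and lists were chosen with earlier results of these data known. Libraries of the same replicate number deviated together, with every correlation of their deviations over 0.1, only between KO and WT at day 0 (0.182 to 0.706), between KO and WT SOX17+ cells of day 7 (0.149 to 0.333) and between days 12 and 7 of WT SOX17+ cells (0.111 to 0.180). Paired by library run, KO and WT SOX17- cells of day 7 did so too (0.135 to 0.146). So did WT SOX17+CD43+ and SOX17+CD43- cells of day 12 (0.127 to 0.282, 2 pairs).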

Additional observations from a re-analysis of the deposited data

Results flagged for a closer look

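In groups of 4 libraries, 8 of 65 sets of values had 1 library far from the other 3 relative to the range, where chance gives about 1 in 20. WT mesoderm of day 2 replicate 2 had 704 CPM of LDHA, with the others between 442 and 485 CPM, and 2849 CPM of PKM, with the others between 2389.6 and 2397 CPM. WT day 0 replicate 3 of the mesoderm protocol had 782 CPM of SLC2A1, with the others between 474 and 504 CPM, and 219.6 CPM of HK2, with the others between 105 and 124 CPM. KO mesoderm of day 4 replicate 4 had 117 CPM of ENO2, with the others between 32 and 41.8 CPM. WT SOX17+CD43- replicate 3 of day 12 had 14.7 CPM of HK2, with the others between 13.1 and 13.3 CPM. WT SOX17- replicate 4 of day 7 had 1003 CPM of LDHB, with the others between 545 and 614 CPM. WT mesoderm of day 4 replicate 3 had 0.907% of its counts in the 31 genes, with the others between 0.741% and 0.765%.

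The change from day 0 differed between endoderm and mesoderm for 16 values of these genes with counts in every group, by the test of that difference in edgeR; values are log2, endoderm minus mesoderm. At day 2 they were 2.67 for ENO2, 1.79 for ALDOC, 1.78 for PFKFB4, 1.00 for PGK1, 0.93 for LDHA, -1.19 for SLC2A1 and -1.30 for HK1. The LDHA value lost its call without endoderm day 0 replicate 2 or endoderm day 2 replicate 3 (adjusted p between 0.0505 and 0.0599), and the SLC2A1 value without endoderm day 0 replicate 1 or endoderm day 2 replicate 1 or 2 (between 0.0545 and 0.0878). At day 4 they were 4.45 for SLC2A3, 2.15 for PKM, 1.26 for PFKL, -0.41 for GAPDH, -0.78 for PFKM, -0.81 for PFKP, -1.14 for LDHB, -1.14 for HK1 and -1.22 for PFKFB3. Leaving out any 1 of 9 libraries ended the GAPDH call (adjusted p between 0.0514 and 0.115) and any 1 of 10 the PFKP call (between 0.0593 and 0.128), and PFKFB3 lost its call without endoderm day 0 replicate 1 or endoderm day 4 replicate 1 (between 0.0550 and 0.1).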

How the results depend on the processing

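No called gene changed direction under any alternative that was run. Of the called values, 234 kept and 2 lost the threshold with DESeq2, 228 and 8 with limma, 233 and 3 with median-of-ratios size factors, 228 and 8 with library size alone, 230 and 6 without the filter, 180 and 6 with the compared groups alone, 231 and 5 with the replicate block, and 58 and 1 with the library run block. In all, 3 counts of called genes moved by over 1.5 times: 11 in place of 6 for endoderm day 7 against day 4 without the filter, 11 in place of 7 for the endoderm against mesoderm change to day 2 with the compared groups alone, and 1 in place of 0 (SLC16A1) for KO SOX17+ against SOX17- cells of day 7 with the compared groups alone. The cause was not tested. Leaving out 1 library gave 13 to 17 called genes (16 with all) for WT day 2 against day 0, 16 to 20 (18) for WT day 4 against day 2, and 15 to 17 (15) and 18 to 22 (19) for the same steps in KO. It gave 12 to 14 (16), 20 to 24 (24) and 4 to 7 (6) for the endoderm steps, 6 to 10 (7) and 7 to 13 (10) for the differences between protocols. It gave 18 to 21 (20) for day 7 endothelium against mesoderm, 23 to 26 (26) for endoderm against endothelium, 8 to 14 (14) and 5 to 9 (7) for day 12 against day 7 in WT and KO. It gave 21 to 26 (23) and 12 to 15 (15) for the CD43+ fractions, and 0 for all KO against WT and SOX17 comparisons. Where 2 libraries made a group, the remaining one was assumed to vary like the other groups. The value of 8 came without WT SOX17+CD43- replicate 3 of day 12. With the replicate block, the counts were 17 in place of 16 for WT day 2 against day 0 and 21 in place of 19 for KO day 4 against day 2, and no count moved by over 1.5 times. With the compared groups alone, the WT day 2 against day 0 calls were 16 lower and 0 higher, in place of 14 and 2. Scaling by library size alone shifted the log2 fold changes of the glycolysis genes described here. The median shift over these genes was -0.25 for endoderm against endothelium of day 7. It was -0.12 and -0.11 for endoderm days 4 and 7, and -0.10 for the protocol difference at day 4. Under this scaling GPI, GAPDH and PDK1 lost their calls in endoderm against endothelium. Depth limits HK3, PFKFB1 and PDK4, which had few counts in many groups.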

Other observations

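TXNIP and ARRDC4, arrestin-related proteins that restrain glucose uptake, dipped in WT mesoderm at day 2. TXNIP averaged 68.8 ± 61.8 CPM at day 0, 12.3 ± 5.13 CPM at day 2 and 154 ± 65.1 CPM at day 4 (SD, n = 4 each; day 2 against day 0, log2 fold change -2.49 ± 0.57 in edgeR). ARRDC4 averaged 4.60 ± 1.79 CPM at day 2 and 25.6 ± 6.33 CPM at day 0 (-2.48 ± 0.51) and was higher at day 4 than at day 2 (+2.60). In endoderm TXNIP was lower at day 4, at 3.99 ± 0.85 CPM against 29.2 ± 10.3 CPM at day 2 (-2.85 ± 0.29, adjusted p = 2.9e-06). Of 18 regulators of glycolytic genes, 11 were lower and 5 higher in endoderm of day 7 than in SOX17+ endothelium of day 7 (median -0.52; of all tested genes 36.3% were called lower and 35.3% higher). KLF2, a flow-responsive endothelial factor, averaged 40.5 ± 8.71 CPM in that endothelium against 1.51 ± 0.50 CPM in mesoderm of day 4 (+4.76 ± 0.25, adjusted p = 3.3e-07), and EPAS1, which encodes HIF-2 alpha, averaged 95 ± 18.9 CPM against 10.0 ± 3.33 CPM (+3.26 ± 0.25, adjusted p = 2.4e-06). In SOX17-CD43+ cells EPAS1 was lower, at 14.2 ± 1.67 CPM against 307 ± 94.6 CPM in SOX17+CD43- cells (-4.39 ± 0.35, adjusted p = 2.2e-11).

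The single KO library of SOX17-CD43- cells of day 12, which entered no test, had 0.398% of its counts in the 31 genes. It held 573 CPM of GAPDH, 458 CPM of LDHB, 386 CPM of SLC2A3, 361 CPM of PKM, 105 CPM of LDHA, 217 CPM of HK1, 17 CPM of HK2, 9.84 CPM of SLC2A1, 19.1 CPM of SLC16A3 and 6.89 CPM of PDK4.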
